A study of Sus scrofa with 6 samples.

Results

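CD2, CD5, CD28 and CD40LG are surface proteins of T cells, and their transcripts were followed in lymph node, spleen and thymus of RAG2 knockout and wild-type pigs. These 4 genes, fixed by name, were all found among the 4122 genes that the tables list. The wild-type group holds wild-type littermates at 3 months of age, and the knockout group holds pigs of the same age with both RAG2 alleles knocked out, described in the series title as the deletion of a single amino acid. With RAG1, RAG2 cuts and joins the antigen receptor genes of developing lymphocytes. Each tissue and genotype has 1 library of total RNA, 6 in all, so no difference has a replicate check and no p-value is given. The sources used here do not say how many animals were sampled or whether the tissues of one genotype come from one animal.

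CD2 is an adhesion receptor that holds the T cell to its partner through CD58 or CD48, and in pigs natural killer cells carry it too. CD5 is a scavenger-receptor family protein that damps antigen receptor signalling, and its level follows the strength of that signal in thymocytes. CD28 gives the second, costimulatory signal when it meets CD80 or CD86 on an antigen-presenting cell. CD40LG, a tumour necrosis factor family ligand shown mainly by activated helper T cells, acts on CD40 of B cells, dendritic cells and macrophages and is needed for antibody class switching. CD2 and CD5 appear early in thymic development, while CD28 and CD40LG belong mainly to later or activated T cells.

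In the Sscrofa11.1 annotation of RefSeq, CD2 lies on chromosome 4 (103963802 to 103976971) and CD5 on chromosome 2 (10648973 to 10673479). CD28 lies on chromosome 15 (107128103 to 107155431) and CD40LG on chromosome X (111778666 to 111788901). The number of other annotated genes overlapping them was 0 for each of the 4. CD28 stands in a cluster with its relatives CTLA4, which begins 127650 bases beyond the end of CD28, and ICOS, 194822 bases beyond it. CD58 begins 193856 bases beyond the end of CD2.

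The libraries carried 1922562 to 2541724 fragments assigned to listed genes. Pairs of values are given with wild type before knockout. RAG2 itself was read at 606 and 1072 FPKM in thymus and had 0 and 5 fragments in lymph node and 4 and 0 in spleen, which is no check of the genotype labels, since an edited gene can still be transcribed. Some markers matched the tissue labels. The thymic chemokine CCL25 stood at 1423 and 414 FPKM in the thymus libraries and at no more than 1.04 FPKM in the others. PTCRA, the partner chain of the first T-cell receptor, showed the same split. The lymph node chemokine CCL21 was highest in the 2 lymph node libraries and the red-cell gene HBB in the 2 spleen libraries. Other listed markers kept less strictly to their tissue. The thymus marker DLL4 was highest in knockout lymph node, at 58.8 FPKM, against 43.5 and 23.6 FPKM in thymus. The spleen marker CD5L stood at 365 and 1320 FPKM in spleen and at 152 and 456 FPKM in lymph node. Spleen was thus higher within each genotype, but knockout lymph node exceeded wild-type spleen. The lymph node marker CCL19 stood at 2163 and 2589 FPKM in lymph node and at 109 and 2097 FPKM in spleen. Lymph node was higher within each genotype, but knockout spleen came near wild-type lymph node.

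Values are FPKM, a fragment count corrected for transcript length and library depth, which the authors calculated separately for each tissue table. A gene counts as measured in a tissue at 1 FPKM or more in at least 1 of the 2 libraries. It is called lower or higher when its log2 ratio, knockout over wild type with 1 FPKM added to each, is at least 1 in size. Percentages of wild type and fold differences are ratios of fragment counts scaled by the factor of each library, with 95% Clopper-Pearson intervals that cover counting error only. In whole tissue, fewer cells of a type and less RNA per cell cannot be told apart.

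The 4 genes were called lower in the knockout in 11 of the 12 combinations of gene and tissue, and higher in 0. In lymph node all 4 were called lower, where 10.3% of 2910 measured genes were (and 15.3% higher). In spleen 3 of 4 were, against 10.04% of 2849 genes (8.88% higher), and in thymus all 4 were, against 10.9% of 2908 genes (15.2% higher). The counting intervals of all 11 lay below equal levels, which held for the lower calls of 8.87, 8.42 and 8.53% of measured genes in lymph node, spleen and thymus. The median log2 ratio of the 4 was -3.23 in lymph node, -2.21 in spleen and -3.42 in thymus, where that of all measured genes was -0.0046, -0.016 and -4.7e-05. With CD40LG set at its bound where the knockout had 0 fragments, the medians were -2.21 in spleen and -3.06 in thymus. All 4 were measured in every tissue, but 5 of the 12 combinations passed the minimum only through the wild-type library: CD28 in each tissue and CD40LG in spleen and thymus. The shares of all measured genes called lower or higher are also the background for the gene list counts below.

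**Figure D1:**
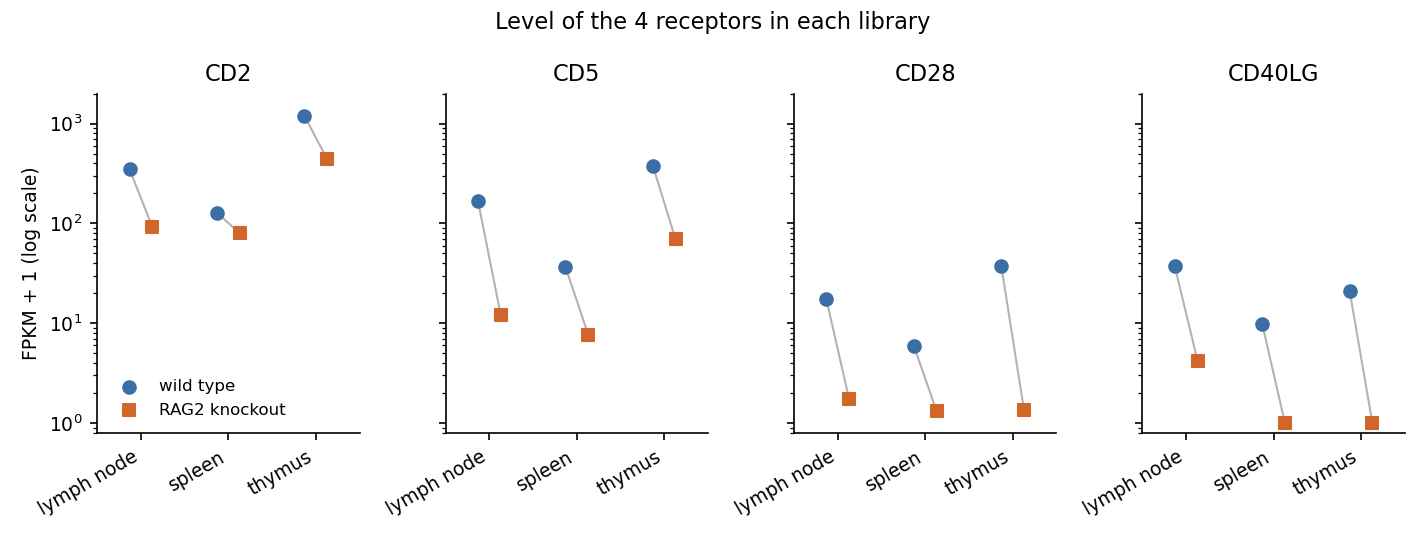
FPKM + 1 on a log scale for CD2, CD5, CD28 and CD40LG, 1 panel per gene, with 1 wild-type (circle) and 1 knockout (square) library per tissue joined by a grey line; there are no replicates, so no error bars. Every knockout point lies under its wild-type point, and CD40LG was listed at 0 in the knockout spleen and thymus.

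CD2, the adhesion receptor, was the most abundant of the 4 in every library and the least reduced. It was read at 348 and 91.4 FPKM in lymph node, at 127 and 78.5 FPKM in spleen, and at 1191 and 439.7 FPKM in thymus. The knockout library was the lower of the pair in each tissue, while the knockout thymus still exceeded wild-type lymph node and spleen on the FPKM scale. By scaled fragments the knockout lymph node kept 26.5% of the wild-type level (22.8 to 30.6%), the spleen 62.4% (52.5 to 74.1%) and the thymus 36.9% (34.5 to 39.5%). The spleen value, a log2 ratio of -0.69, was the 1 of 12 short of a call, although its counting interval excluded equal levels.

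The CD2 difference was not of one size across tissues. The share kept in spleen was 2.36 times that in lymph node (1.88 to 2.96), and the share kept in thymus was 1.396 times that in lymph node (1.19 to 1.64). Among all measured genes ordered from the lowest log2 ratio, CD2 took place 121 in lymph node, 446 in spleen and 179 in thymus. These intervals compare single libraries and hold no variation between animals.

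CD5, the inhibitor of antigen receptor signalling, stood lower than CD2 in the knockout relative to wild type in all 3 tissues. In lymph node it was read at 167 and 11.2 FPKM (826 and 58 fragments), which is 14.9-fold lower (11.4 to 19.8). In spleen it was read at 35.8 and 6.71 FPKM (182 and 40 fragments), 5.31-fold lower (3.76 to 7.68). In thymus it was read at 378 and 68.2 FPKM (1964 and 363 fragments), 5.54-fold lower (4.95 to 6.22). Spleen and thymus kept like shares, 18.8% and 18.04%, with a ratio of 0.96 between them and an interval of 0.66 to 1.41. Lymph node kept 6.72%, and the thymus share was 2.69 times as large (2.004 to 3.65). CD5 was at place 24 from the lowest of all measured genes in lymph node.

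CD28, the costimulatory receptor, was close to the limit of detection in every knockout library. In lymph node it was read at 16.3 and 0.74 FPKM, from 42 and 2 fragments. In spleen the values were 4.93 and 0.32 FPKM, from 13 and 1 fragments, and in thymus 36.8 and 0.36 FPKM, from 99 and 1 fragments. The knockout therefore kept 4.56% of the wild-type level in lymph node (0.53 to 17.5%), 6.59% in spleen (0.16 to 43.9%) and 0.99% in thymus (0.025 to 5.62%). With so few fragments the shares of the 3 tissues could not be separated, since the interval of every ratio between them includes 1. The thymus log2 ratio of -4.79 was at place 11 from the lowest of 2908 measured genes. The spleen call rests on the 13 wild-type fragments and was lost with a pseudocount of 5 FPKM, where the log2 ratio was -0.90, and under a minimum of 5 FPKM.

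CD40LG, the helper-cell ligand, was listed at 0 in 2 of the 3 knockout libraries. In lymph node it was read at 36.1 and 3.21 FPKM, from 64 and 6 fragments, 11.2-fold lower (4.85 to 31.5). In thymus 37 fragments (19.95 FPKM) faced 0, at least 12.6-fold lower against a floor of 3 fragments per library, while the counting interval, which also covers the wild-type fragments, reaches 10.2% of wild type. In spleen 16 fragments (8.82 FPKM) faced 0, at least 6.23-fold lower against that floor, and the interval reaches 22.2%. The floor of 3 fragments is 1.19 parts per 1000000 (ppm) of the fragments of listed genes in the knockout spleen and 1.25 ppm in the knockout thymus. The exact Poisson interval of a count of 0 reaches 1.47 and 1.54 ppm there. Of platelet genes, listed because platelets can carry CD40LG protein, 2 of 4 measured were called higher in lymph node, 5 of 6 in spleen (4 by counting interval) and 1 of 4 in thymus, with 0 lower. The shares of all measured genes called higher were 15.3, 8.88 and 15.2% in lymph node, spleen and thymus. Summed levels of the platelet genes were 66.7 and 94.8 FPKM in lymph node, 31.5 and 107.9 FPKM in spleen and 9.87 and 18.5 FPKM in thymus. SELP alone made 58.1 and 65.5 FPKM of the lymph node sums. PPBP was at 0 in all 6 libraries, and GP9 and TREML1 were at 0 in the lymph node and thymus libraries. The part of platelets in the CD40LG values was not tested.

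**Figure D2:**
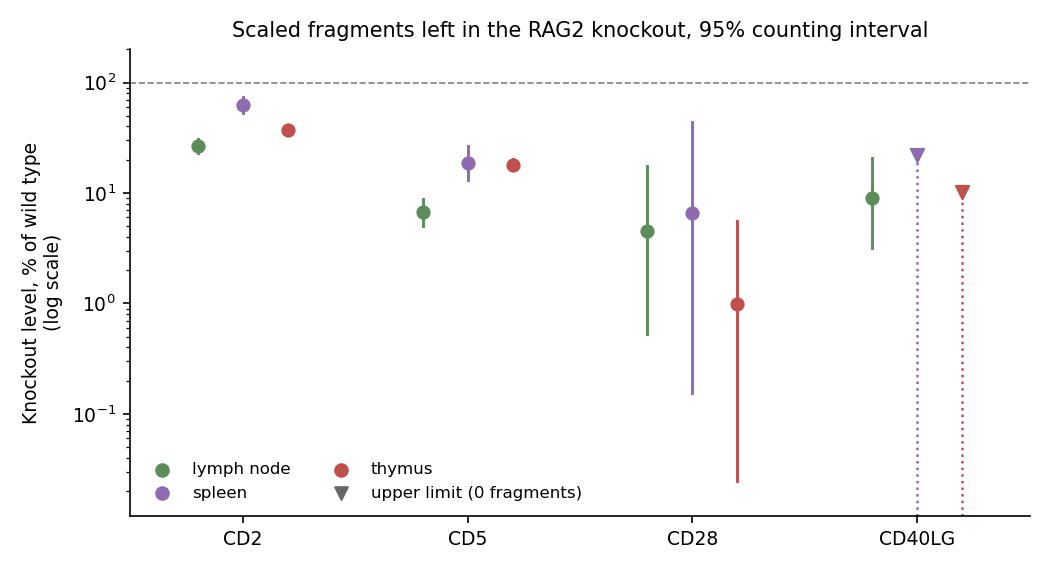
Knockout level as a percentage of the wild-type level on a log scale for each gene, coloured by tissue; points are ratios of scaled fragments, lines their 95% counting intervals, and triangles the upper limit where the knockout had 0 fragments. CD2 lies between 26.5% and 62.4%, CD5 between 6.72% and 18.8%, and the CD28 and CD40LG intervals are wide.

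To set tissues on one scale, fragments were expressed in ppm of the fragments of listed genes in each library. On that scale CD2 was ordered as wild-type thymus (1209.8 ppm), knockout thymus (485), wild-type lymph node (446), wild-type spleen (154), knockout lymph node (117) and knockout spleen (93.0). Knockout thymus and wild-type lymph node did not differ beyond counting error (ratio 1.09, 0.995 to 1.19), and every other step in that order did. CD5 was ordered as wild-type thymus (773), wild-type lymph node (429.6), knockout thymus (151), wild-type spleen (87.3), knockout lymph node (28.7) and knockout spleen (15.9), with every step beyond counting error. So the knockout thymus held more CD2 and CD5 per listed fragment than the wild-type spleen.

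The order of the later pair put all wild-type libraries above all knockout libraries. CD28 stood at 38.9 ppm in wild-type thymus, 21.8 in lymph node and 6.24 in spleen, each step beyond counting error, and at 0.40 to 0.99 in the knockout libraries, which could not be separated. CD40LG was the only 1 of the 4 with its highest level in lymph node: 33.3 ppm in wild-type lymph node, 14.6 in thymus and 7.67 in spleen. The wild-type spleen and the knockout lymph node (2.97 ppm) did not differ beyond counting error for CD40LG (ratio 2.59, 0.96 to 8.07). The order of the 6 libraries on the FPKM scale was the same in all 15 pairs of libraries for each gene.

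The wild-type tissues differed in how much of each gene they held. Wild-type thymus carried 2.71 times the CD2 of lymph node (2.52 to 2.93), 1.80 times the CD5 (1.66 to 1.95) and 1.78 times the CD28 (1.23 to 2.62), but 0.44 times the CD40LG (0.28 to 0.67). Against wild-type spleen, thymus held 7.86 times the CD2 (7.002 to 8.84), 8.85 times the CD5 (7.60 to 10.4) and 6.25 times the CD28 (3.49 to 12.1), and only 1.90 times the CD40LG (1.03 to 3.65). The median log2 ratio of all genes measured in either library was -0.075 for thymus over lymph node and 0.0018 for thymus over spleen. The counts of CD40LG per CD28 fragment were 4.08 times as high in wild-type lymph node as in thymus (2.29 to 7.28). CD28 per CD5 could not be separated among the wild-type libraries, at 9.80, 13.8 and 9.72% of the CD5 FPKM in lymph node, spleen and thymus. The lymph node to thymus ratio of 1.01 had an interval of 0.68 to 1.48. With 13 CD28 fragments in spleen, the intervals were wider for lymph node to spleen (0.37 to 1.48) and spleen to thymus (0.71 to 2.60).

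Within libraries the balance among the 4 moved toward CD2 in the knockout. CD5 stood at 48.0% of the CD2 FPKM in wild-type lymph node and 12.2% in the knockout, at 28.2 and 8.55% in spleen and at 31.7 and 15.5% in thymus. The share of CD2 kept in the knockout exceeded that of CD5 by 3.94 times in lymph node (2.89 to 5.43), 3.32 times in spleen (2.24 to 4.99) and 2.05 times in thymus (1.79 to 2.34). CD28 made 3.09% of the CD2 FPKM in wild-type thymus and 0.082% in the knockout, and the share of CD2 kept was 37.4 times that of CD28 (6.55 to 1495). CD5 was also kept better than CD28 in thymus, by 18.3 times (3.18 to 732). In lymph node and spleen the intervals for CD5 against CD28 and against CD40LG include 1. Of the 6 pairs among the 4 genes, the interval excluded equal shares in 3 in lymph node, 3 in spleen and 5 in thymus.

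**Figure D3:**
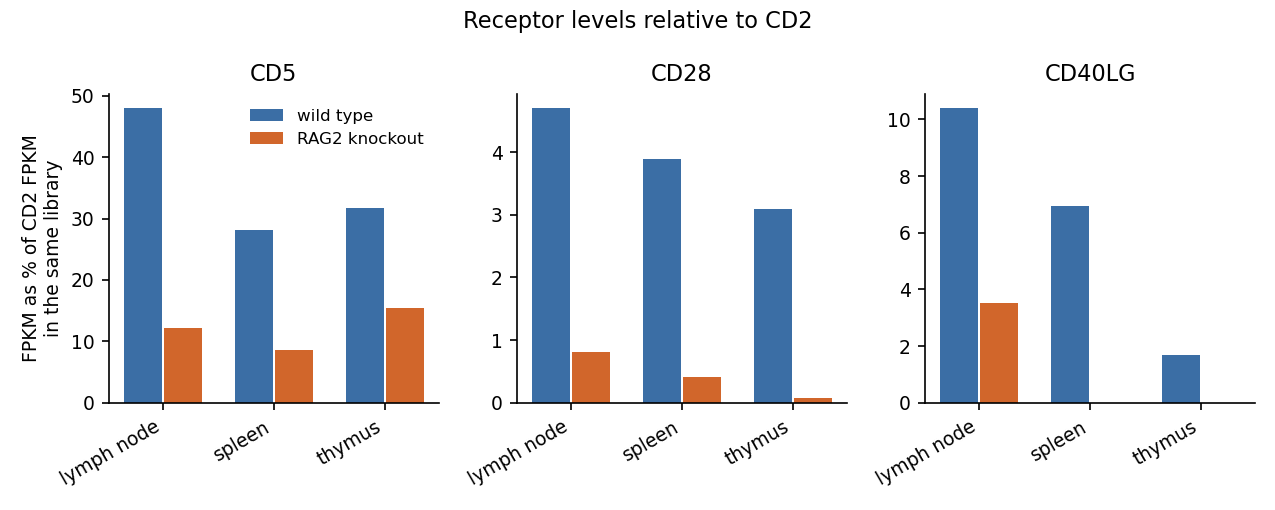
FPKM of CD5, CD28 and CD40LG as a percentage of the CD2 FPKM of the same library, wild type beside knockout for each tissue; each bar is 1 library, and each panel has its own axis from 0. The knockout bar is lower in all 9 pairs, and CD40LG has no bar in the knockout spleen and thymus because it was listed at 0.

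The chains of the CD3 complex, which carries the T-cell receptor signal, did not share one pattern beside CD2. CD3E was reduced further than CD2 outside the thymus: the FPKM ratio of CD2 to CD3E was 1.19 in wild-type and 98.4 in knockout lymph node, 0.82 and 36.4 in spleen, and 0.71 and 0.48 in thymus. CD3E fragments numbered 897 and 3 in lymph node and 489 and 8 in spleen, but the other chains differed from CD3E in spleen. There CD3D was read at 83.7 and 92.9 FPKM (145 and 191 fragments), CD3G at 81.6 and 52.9 FPKM (151 and 116 fragments) and CD247 at 188 and 131 FPKM (772 and 632 fragments), and none of these 3 was called. Their knockout levels were 113% (90.4 to 141%), 65.8% (51.2 to 84.4%) and 70.1% (63.0 to 78.0%) of wild type, where CD2 kept 62.4%. In lymph node CD3D, CD3G and CD247 kept 7.38, 1.71 and 23.3%, beside the 26.5% of CD2. The CD247 interval (20.6 to 26.4%) overlaps that of CD2 (22.8 to 30.6%). Of 12 measured T-cell genes besides the 4, 10 were called lower and 0 higher in lymph node, 7 and 0 in spleen, and 7 and 1 in thymus, with medians of -3.64, -1.15 and -1.21. The 1 higher in thymus was IL7R, the interleukin-7 receptor chain, at 236 and 560.3 FPKM.

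Genes of natural killer and cytotoxic cells moved in both directions. Of 9 measured in lymph node 3 were called higher and 0 lower, of 10 in spleen 5 and 1, and of 9 in thymus 5 and 1, with medians of 0.74, 0.97 and 1.12. The genes called lower were GZMK, a granzyme, in spleen (14 and 3 fragments) and XCL1, a chemokine, in thymus (42 and 11 fragments). Their summed level was 728 and 1380.4 FPKM in lymph node, 1810.2 and 3371 FPKM in spleen, and 280.4 and 608 FPKM in thymus. NKL, the antimicrobial NK-lysin, stood at 87.5 and 909 FPKM in spleen, and the granule protein NKG7 at 84.9 and 228 FPKM, while NCR1 and GZMH were at 0 in every library. TYROBP, a signalling adaptor that myeloid cells carry too, made up 1401.5 and 1763 FPKM of the spleen sums. The part of these cells in the CD2 levels was not tested.

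B cells of some kinds carry CD5, and of 7 measured B-cell genes 7 were called lower in lymph node, 6 in spleen and 5 in thymus. Their summed level went from 1759 to 20.7 FPKM in lymph node, from 598 to 34.6 FPKM in spleen and from 263 to 236 FPKM in thymus. The innate lymphoid list had 2 of 7 called higher and 2 lower in lymph node, 0 and 5 in spleen, and 1 and 4 in thymus. The part of these cells in the CD5 levels was not tested.

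Fat-cell genes moved with the lymph node and thymus comparisons. Of an adipocyte list chosen after the values were seen, all 10 measured genes were called higher in knockout lymph node, with summed levels of 417 and 11279.7 FPKM. In thymus 8 of 9 were called higher, from 542 to 2135 FPKM, and in spleen 2 of 8 were higher and 1 lower, from 565 to 522 FPKM. HBB was read at 376 and 6738 FPKM in lymph node, 41406 and 18970.2 FPKM in spleen and 912 and 4782 FPKM in thymus. The part of other tissue in the lower values was not tested.

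The other costimulatory and inhibitory receptors listed in the tables, 6 of a list of 24, were mostly lower too. In lymph node 5 of 6 were called lower, in spleen 3 of 5 and in thymus 6 of 6, with 0 higher, and medians of -2.30, -1.16 and -2.30. CD27, a costimulatory receptor of the tumour necrosis factor receptor family, was read at 102 and 6.82 FPKM in lymph node, 21.1 and 8.89 FPKM in spleen and 293 and 28.0 FPKM in thymus. SLAMF1, a self-binding receptor, was read at 206 and 24.7 FPKM in thymus and at 7.75 and 7.52 FPKM in spleen. LAG3, an inhibitory receptor, had 18 and 1 fragments in lymph node and 11 and 3 in spleen. CD96, an adhesion receptor of T and natural killer cells, was the exception in lymph node, at 33.8 and 48.5 FPKM.

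The relatives of CD28 on chromosome 15 were lower where they were measured. ICOS, the inducible costimulator, kept 17.0% of its wild-type level in lymph node (12.8 to 22.3%), 13.9% in spleen (6.87 to 25.7%) and 20.03% in thymus (17.7 to 22.6%). In thymus, 1511 and 310 ICOS fragments contrast with 99 and 1 for CD28, and the ICOS share kept was 20.3 times that of CD28 (3.53 to 813). The intervals of this ratio in lymph node (0.93 to 32.6) and spleen (0.26 to 96.95) include 1. CTLA4, the inhibitory counterpart of CD28, had 18 and 0 fragments in lymph node, 1 and 0 in spleen and 6 and 0 in thymus.

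**Figure D4:**
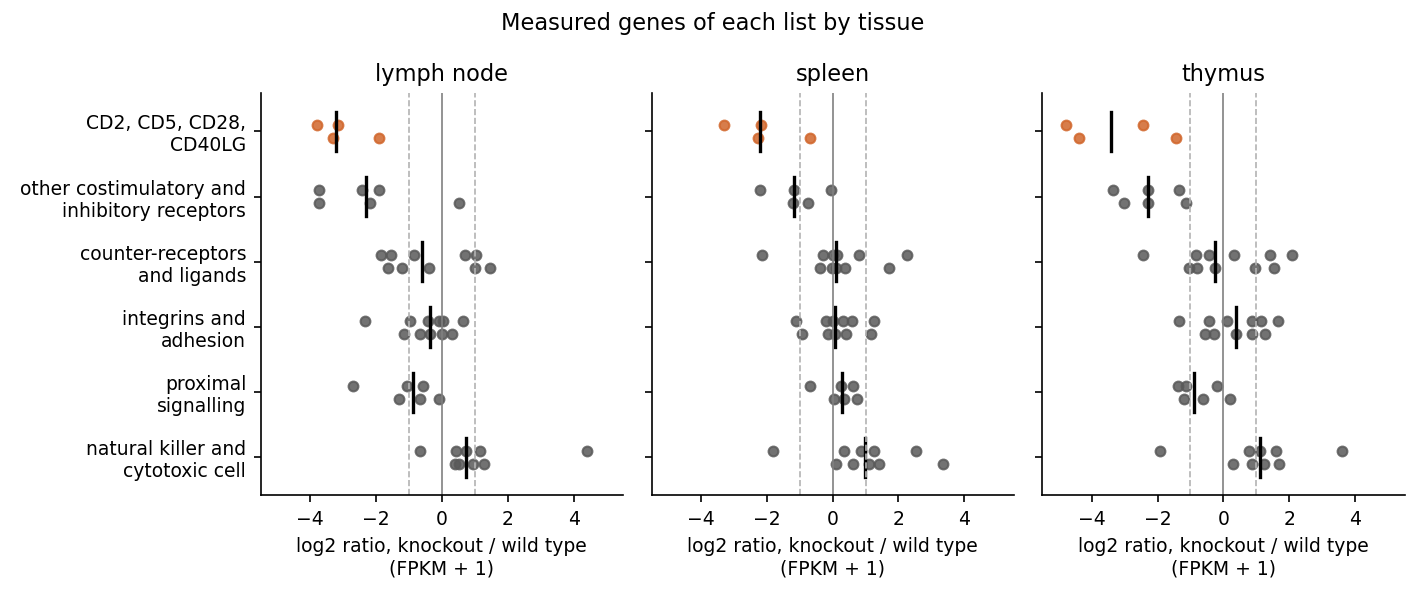
Log2 ratios of knockout over wild type (FPKM + 1) for the measured genes of 6 lists, 1 panel per tissue; each point is a gene, black bars are medians, dashed lines mark the size needed for a call. The 4 genes have medians of -3.23, -2.21 and -3.42, and natural killer and cytotoxic genes 0.74, 0.97 and 1.12.

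The partners on antigen-presenting and other cells did not share one direction. Of 10 measured counter-receptors and ligands in lymph node 3 were called higher and 4 lower, of 11 in spleen 2 and 1, and of 11 in thymus 3 and 2, with medians of -0.62, 0.10 and -0.25. By counting interval the calls became 3 higher and 3 lower in lymph node, 1 and 0 in spleen, and 3 and 1 in thymus. Among all measured genes 15.3% were called higher and 10.3% lower in lymph node, 8.88 and 10.04% in spleen, and 15.2 and 10.9% in thymus. With 11 genes, the spleen and thymus counts are too small to be set apart from these shares. CD58, a widely expressed ligand of CD2, was read at 27.5 and 56.1 FPKM in lymph node, 101 and 77.7 FPKM in spleen and 42.4 and 82.8 FPKM in thymus. CD48, the other ligand of the CD2 family, was read at 165 and 52.3 FPKM in lymph node, 98.4 and 128 FPKM in spleen and 128 and 70.5 FPKM in thymus. In lymph node CD2 and CD48 kept shares whose ratio was 0.83 (0.68 to 1.01), while in spleen the CD2 share was 0.48 times that of CD48 (0.39 to 0.58). CD72, a B-cell protein described as a ligand of CD5, was called lower in lymph node (59.4 and 15.7 FPKM) and thymus (104 and 49.6 FPKM) and stood at 24.1 and 25.98 FPKM in spleen.

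The ligands of CD28 remained readable in tissues where CD28 was nearly absent. CD80 was read at 11.98 and 8.98 FPKM in lymph node, 21.2 and 17.1 FPKM in spleen and 3.26 and 4.30 FPKM in thymus, and its counting interval included equal levels in each tissue. CD86 stood at 95.8 and 52.7 FPKM in lymph node and at 153 FPKM in both spleen libraries. In thymus CD86 was called higher, from 12.4 to 38.0 FPKM (31 and 97 fragments), 3.05 times the wild-type level (2.02 to 4.74), while CD28 went from 99 fragments to 1. The inhibitory ligand CD274 was called higher in spleen, from 7.32 to 26.4 FPKM.

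CD40, the receptor of CD40LG, was lower in the lymph node but not in the spleen. It was read at 184 and 62.9 FPKM in lymph node, 101 and 99.0 FPKM in spleen and 47.1 and 26.7 FPKM in thymus. The spleen kept 98.6% of its CD40 level (84.9 to 115%) with 0 CD40LG fragments. Of 7 measured genes of CD40 signalling 1 was called lower in lymph node (CD40 itself), 0 in spleen and 2 in thymus, with 0 higher. Among all measured genes 10.3, 10.04 and 10.9% were called lower in lymph node, spleen and thymus. The 2 in thymus were NFKBIA, the inhibitor of NF-kappaB, at 705 and 332 FPKM, and the NF-kappaB subunit NFKB1, at 23.7 and 10.8 FPKM, and 0 of the 7 were called there with counts scaled to their total.

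**Figure D5:**
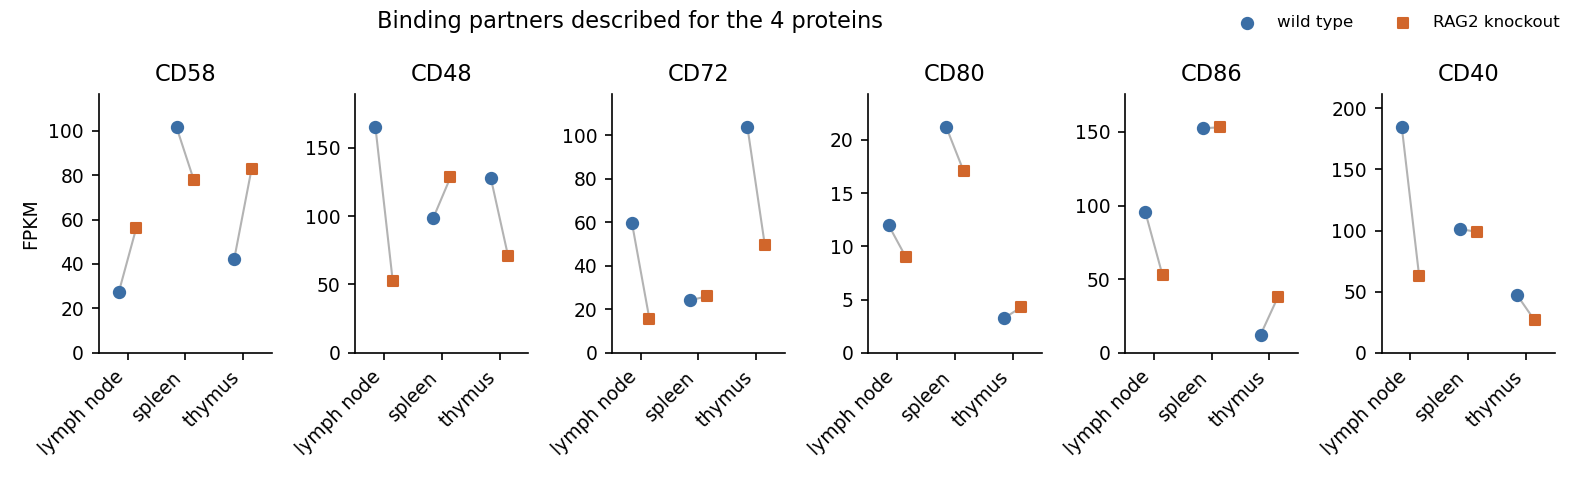
FPKM of 6 binding partners of the 4 proteins, 1 panel per gene with its own axis from 0; circles are wild-type and squares knockout libraries, 1 each per tissue. CD40 was nearly level in spleen (101 and 99.0 FPKM), and CD86 was higher in the knockout thymus (12.4 and 38.0 FPKM).

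Integrins and other adhesion genes differed less than CD2. Of 11 measured, 2 were called lower and 0 higher in lymph node, 1 and 2 in spleen, and 1 and 3 in thymus, with medians of -0.36, 0.076 and 0.37. Among all measured genes 10.3% were called lower and 15.3% higher in lymph node, 10.04 and 8.88% in spleen, and 10.9 and 15.2% in thymus. ITGAL, a chain of the integrin LFA-1 that works beside CD2 at the T-cell contact, was read at 146 and 108 FPKM in lymph node, 98.2 and 224 FPKM in spleen and 117 and 44.9 FPKM in thymus. SELPLG, the ligand of P-selectin, was called higher in spleen (247 and 592 FPKM) and thymus (43.3 and 139 FPKM).

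Among genes that carry the signal inward, 3 of 6 measured were called lower in lymph node, 0 in spleen and 3 in thymus, with 0 higher and medians of -0.86, 0.29 and -0.88. LCK, the kinase that CD2 and CD28 signals use, was read at 160.0 and 23.6 FPKM in lymph node, 67.0 and 41.4 FPKM in spleen and 940.0 and 428 FPKM in thymus. LCK and CD2 kept like shares in spleen, with a ratio of 1.005 between them (0.79 to 1.27), while in lymph node the CD2 share was 1.79 times that of LCK (1.41 to 2.26). PSTPIP1, an adaptor that binds the CD2 tail, stood at 54.1 and 20.2 FPKM in thymus. Of 11 measured targets of T-cell activation 4 were called lower and 1 higher in lymph node, of 10 in spleen 2 and 2, and of 11 in thymus 7 and 0. By counting interval these became 3 and 0, 1 and 1, and 4 and 0, and counts scaled to their total also left 4 in thymus; IL2, IL21 and IFNG in thymus rest on 3, 1 and 2 wild-type fragments against 0. CD69, an early activation marker, was read at 113 and 17.9 FPKM in lymph node, 30.2 and 11.5 FPKM in spleen and 62.5 and 4.59 FPKM in thymus. EGR2, a transcription factor induced by receptor signalling, had 60 and 1 fragments in thymus.

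Genes with the most similar pattern were ranked by Pearson's r of log2(FPKM + 1) over the 6 libraries among 2804 genes with at least 5 FPKM in 1 library. The 6 points share genotype and tissue, so r is a description, and many genes reach high values. For CD2 the closest included RPS18 (r = 0.997), MPI (0.992) and RPL3 (0.991). For CD5 they were DCT (0.995), RPL15 (0.989), DAPL1 (0.981), DDX3X (0.978) and CLGN (0.977), and for CD28 CD163L1 (0.981), FKBP4 (0.951), SQLE (0.9499), HSPA8 (0.9495) and CD8A (0.949). CD40LG was closest to C5H12orf57 (0.976), the lymphotoxin genes LTB (0.966) and LTA (0.965), CD69 (0.965) and ARL6IP5 (0.961). Among the 4 themselves r was 0.94 for CD2 with CD5, 0.91 for CD28 with CD40LG, and 0.45 for CD2 with CD40LG.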

How the data were processed

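The 6 libraries, 1 per tissue and genotype, were grouped by their titles. Per the submitters' processing notes, FastQC 0.11.9, Trimmomatic 0.39, STAR 2.7.9a, Cufflinks 2.2.1 and build Sscrofa11.1 were used, without order or settings. The sources used here name no annotation, strand setting or treatment of shared fragments. FPKM values were deposited by the authors, calculated table by table. The deposited estimated counts carry 1 factor per library: divided by the most frequent value above 0, 97.0 to 99.2% of values were whole within 0.02, and each was rounded to fragments. Totals cover the listed genes, part of the pig's genes, and are not library depth.

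Log2 ratios add 1 FPKM, and a call needs a size of at least 1. Intervals are 95% Clopper-Pearson intervals for ratios of scaled fragments, exact Poisson intervals for levels and conditional intervals of odds ratios for ratios of shares. A library at 0 is set to 3 fragments for a bound. A fit across tissues was not made.

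The members and gene lists were chosen with earlier results of these data known, and the adipocyte list was added after the values were seen. Named genes are the 4 members, the partners CD58, CD48, CD80, CD86, CD40 and CD72, up to 3 called genes with at least 10 fragments and the largest ratio per list and tissue, the 5 genes most like each member, and CD3E and HBB. Some genes under this rule are not reported here. RAG2, CD96, PTCRA, NCR1, GZMH, PPBP, GP9, SELP, CD3D, CD247, IL2 and IL21 lie outside this rule and were picked with their values in view. No p-value was computed, no sequence was used and no column was left out. Calculations were tested on simulated counts. Alternatives were counts scaled to their total, edgeR 4.0.16 TMM factors and DESeq2 1.42.0 size factors (R 4.3.3), with other pseudocounts, minimums, centring and thresholds. Other software was scipy 1.17.1, matplotlib 3.10.9, numpy 2.4.6 and pandas 2.3.3 under Python 3.11.15.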

Additional observations from a re-analysis of the deposited data

Results flagged for a closer look

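ITGAL was called in opposite directions in 2 tissues, with log2 ratios of 1.18 in spleen and -1.36 in thymus, a difference of 2.54. HBB was called higher in lymph node (4.16) and thymus (2.39) and lower in spleen (-1.13), differences of 5.29 for lymph node minus spleen and -3.52 for spleen minus thymus. Other listed genes were also called in opposite directions and were not flagged. Among them, in spleen and thymus, were CCL19 (4.26 and -2.82), IL7R (-2.67 and 1.24) and FSCN1 (1.56 and -2.43). With 1 library per group these differences were not tested.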

How the results depend on the processing

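All 72 recomputed log2 ratios of the 4 genes were negative, and 64 stayed within the counting interval of the reported value. Many of these signs were fixed in advance, since a changed pseudocount cannot change a sign. Centring subtracted only the medians of all measured genes (-0.0046, -0.016 and -4.7e-05 in lymph node, spleen and thymus). Only the counts scaled to their total and the TMM and DESeq2 factors could have turned a sign. The calls of CD5 and CD40LG held under every alternative run in the 3 tissues. CD28 in spleen lost its call with a pseudocount of 5 FPKM and under a minimum of 5 FPKM, leaving 2 genes called there, and CD2 in lymph node and thymus lost its call at a threshold of 2, leaving 3. A minimum of 10 fragments in either library, chosen after seeing the data, changed no call of the 4 genes. It could change none, since the fewest wild-type fragments were 13, for CD28 in spleen. Counts scaled to their total moved the thymus median of all genes to 0.12 and CD2 to -1.32. CD28 and CD40LG rest on 0 to 6 fragments in the knockout libraries, which limits every ratio that uses them.

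Of 96 counts of called genes (16 lists, 3 tissues, 2 directions), those that moved by over 1.5 times were 54 at a threshold of 2, 27 with a pseudocount of 5 FPKM, 15 under a minimum of 5 FPKM, 9 by counting interval, 9 with a minimum of 10 fragments, 7 with counts scaled to their total, 4 with TMM, 4 with DESeq2 size factors, 1 each with centring and a pseudocount of 0.1 and 0 with no minimum.

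The genes most like each member depend on the scale. Of the 5 closest to CD2, 1 was shared with CPM. For CD5, 3 were shared with a pseudocount of 0.1, 3 with a pseudocount of 5, 3 with CPM (counts scaled to the total) and 2 by Spearman's rho. For CD28 the numbers were 2, 3, 2 and 1, and for CD40LG 3 with either pseudocount and 3 by rho; the cause was not tested. Pairing by animal could not be used, because the sources used here do not say whether the tissues of one genotype come from one animal. A fit of genotype with tissue as a block, which 6 libraries would allow, was not made.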
